A study of Mus musculus with 18 samples.

Results

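Lipid droplets are the organelles in which hepatocytes keep triglyceride, and the transcripts of 10 genes that coat, enlarge, build or break down these droplets are described here across the zones of the mouse liver lobule and across feeding states. The members are Plin2, Plin4, Plin5, Cideb, Cidec, Fitm1, Pnpla2, Abhd5, G0s2 and Hilpda. They were chosen by name and matched by symbol to the Ensembl gene identifiers of the deposited table, which gave 10 of the 28030 genes in it. All 10 passed the filter on low counts.

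The hepatocytes came from 12-week-old male C57BL/6J wild-type mice on chow, trained for 3 days to an overnight fast of 16 h. Fed mice had 4 h of food with 20% sucrose in the water and were killed at clock hour 13, and the other mice were then fasted for 8 h (killed at clock hour 21) or for 24 h (killed at clock hour 13 of the next day). In each state, digitonin perfusion was used to isolate cells from the pericentral side (around the outflow vein) and from the periportal side (where blood enters). RNA of each of these 6 groups was sequenced in 3 libraries, 18 in all. An 8 h fast and a later clock hour cannot be told apart in the comparison of 8 h with fed, whereas the 24 h and fed groups share a clock hour. Nothing states that same-numbered libraries share a mouse or a day, or that replicates were separate animals, so the p-values measure the spread between these libraries.

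A lipid droplet is a core of neutral lipid under a single layer of phospholipid, and perilipins (Plin genes) coat that surface and limit the access of lipases. CIDE proteins (Cideb and Cidec) act where droplets touch or meet secretory membranes, and FIT proteins (Fitm1) act in the endoplasmic reticulum, where droplets form. The lipase encoded by Pnpla2 (adipose triglyceride lipase) takes the first fatty acid from triglyceride. It is activated by the product of Abhd5 and inhibited by those of G0s2 and Hilpda, and the freed fatty acids feed oxidation and ketone production in the fasted liver.

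Upstream sequences of 5 members are shown. By the tests below, Plin2, Plin5, Pnpla2 and Abhd5 changed at both 8 h and 24 h in at least 1 zone, and Fitm1 differed between zones. Cidec, which rose in periportal cells at 24 h, is not shown. Each is the 250 bases before the annotated start, in RefSeq on GRCm38.p6, written from 5′ to 3′ on the strand of the gene. Plin5 has 2 annotated starts, and the window of start 1 is shown. The windows are chr4:86670060-86670309 (minus strand) for Plin2, chr17:56117549-56117798 (minus strand) for Plin5, chr7:141454938-141455187 (plus strand) for Pnpla2, chr9:122351366-122351615 (plus strand) for Abhd5 and chr14:55575424-55575673 (plus strand) for Fitm1. Capitals mark a match to a motif searched.
Plin2: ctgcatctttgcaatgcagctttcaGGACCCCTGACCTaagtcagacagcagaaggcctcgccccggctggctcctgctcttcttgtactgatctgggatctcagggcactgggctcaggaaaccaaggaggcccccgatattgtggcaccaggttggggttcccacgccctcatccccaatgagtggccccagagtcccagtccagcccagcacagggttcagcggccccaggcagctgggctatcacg
Plin5: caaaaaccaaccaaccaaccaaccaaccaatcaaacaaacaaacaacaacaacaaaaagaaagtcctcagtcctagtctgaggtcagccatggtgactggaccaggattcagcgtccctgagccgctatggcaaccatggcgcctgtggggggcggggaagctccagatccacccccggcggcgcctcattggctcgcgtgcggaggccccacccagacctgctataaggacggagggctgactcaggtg
Pnpla2: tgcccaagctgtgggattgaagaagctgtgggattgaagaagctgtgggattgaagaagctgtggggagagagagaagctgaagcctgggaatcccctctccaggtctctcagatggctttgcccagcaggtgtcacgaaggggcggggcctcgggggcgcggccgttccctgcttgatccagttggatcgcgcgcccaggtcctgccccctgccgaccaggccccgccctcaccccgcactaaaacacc
Abhd5: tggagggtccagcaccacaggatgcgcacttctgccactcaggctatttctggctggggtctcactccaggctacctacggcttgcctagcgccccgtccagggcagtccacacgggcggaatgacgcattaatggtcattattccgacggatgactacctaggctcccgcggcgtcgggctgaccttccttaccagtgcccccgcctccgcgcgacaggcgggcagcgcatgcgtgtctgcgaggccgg
Fitm1: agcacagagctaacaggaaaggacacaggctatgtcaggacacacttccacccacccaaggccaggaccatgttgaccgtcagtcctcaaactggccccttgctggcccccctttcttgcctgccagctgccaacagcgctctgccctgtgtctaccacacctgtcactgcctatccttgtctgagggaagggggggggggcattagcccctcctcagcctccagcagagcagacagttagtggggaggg

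Motifs of 4 kinds were searched on both strands of these windows and of the other promoters of the members, 13 in all for the 10 genes. The motif marked in Plin2 is a pair of AGGTCA half-sites 1 base apart with at most 2 mismatches of 12 bases, the layout that PPAR and RXR receptors bind as a pair. The match in Plin2, GGACCCCTGACCT, has 2 mismatches, lies on the opposite strand and begins 225 bases before the start. Such a pair was present in 3.24% of 32851 promoters of the same length, and among the 13 windows of the members in that of Plin2 only. The E-box CACGTG (6.02% of promoters), TGTTTAC (bound by FOXO factors, 3.17%) and ATCAAAG (bound by TCF factors, 3.21%) were in none of the 13 windows of the members. A match is a description of these letters, and an absent match covers only this window.

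The libraries held 1.84e+07 to 2.64e+07 estimated counts each. Levels are given in CPM, the counts scaled to a common library total with TMM factors, and differences as log2 fold changes of edgeR's quasi-likelihood test, with a Benjamini-Hochberg adjusted p over 12477 genes, called at an adjusted p under 0.05. The zone labels held for Cyp2e1, a pericentral cytochrome P450, at 7611 to 16060 CPM in pericentral and 325 to 1826 CPM in periportal libraries. They also held for Cyp2f2, the periportal counterpart of Cyp2e1, at 132 to 793 and 1578 to 3075 CPM. Of 6 pericentral marker genes, all but Glul were called lower in periportal cells at 24 h. Pericentral replicate 2 at 24 h held 111 CPM of Glul (periportal range 62.6 to 174.5) and 8.82 CPM of Slc1a2, against 241 and 256 in its group. It also had the highest pericentral Cyp2f2, Hal and Sds (793, 466 and 215 CPM), with Cyp2e1 at 10270 CPM. A mixing of zones there was not tested. Summed markers of adipocytes reached at most 0.932 CPM and of skeletal muscle at most 0.586 CPM, both tissues in which several of the members are abundant. Of the 5 markers in each list, those of adipocytes were at 0 in 4 (Fabp4) to 16 (Lep) of 18 libraries. Those of muscle were at 0 in 8 (Acta1) to 16 (Ckm and Tnnt3). Marker sums of other liver cells were 0.901 to 17.0 CPM for stellate cells, 0.444 to 22.6 CPM for Kupffer cells and leukocytes, 3.39 to 30.8 CPM for sinusoidal endothelium and 19.3 to 56.7 CPM for cholangiocytes. The cholangiocyte sum rested on Krt7, Sox9 and Spp1, as Epcam was at 0 in all 18 libraries and Krt19 reached at most 0.506 CPM. In the fed state each of these 4 sums was higher in every periportal than in every pericentral library, and their part in any zone difference was not tested. Neutrophil markers summed to 0 to 1.47 CPM.

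Per kilobase of exon, which allows levels to be compared between genes, Plin2 stood highest at a mean of 161 CPM per kb over the 18 libraries, followed by Cideb (148), G0s2 (98.3), Plin5 (41.8), Pnpla2 (29.1), Fitm1 (16.5), Abhd5 (9.38), Cidec (2.27), Hilpda (1.27) and Plin4 (0.222). The library ranges of neighbours in this order overlapped, except those of Abhd5 (7.04 to 15.2 CPM per kb) and Cidec (0.823 to 5.18). Plin2 ran from 93.8 to 347 CPM per kb and Cideb from 130 to 175. The low end of the order rested on few reads, with 37 to 244 counts per library for Cidec, 10 to 71 for Hilpda and 0 to 235 for Plin4.

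**Figure D1:**
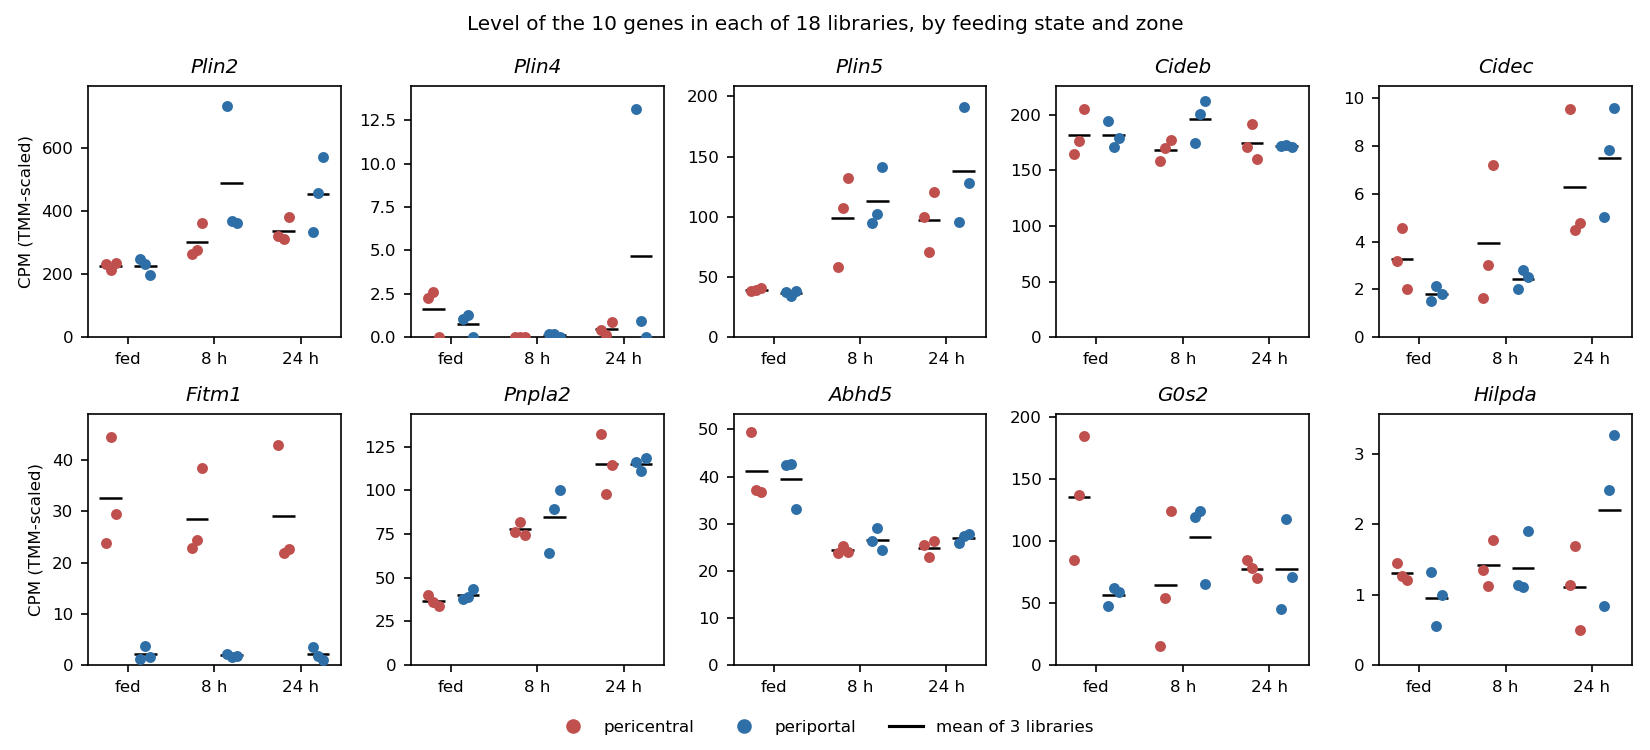
Level of each of the 10 genes in CPM after TMM scaling (y axis, from 0) in the 18 libraries, by feeding state (x axis) and zone (colour), with a black line at the mean of 3 libraries. Pnpla2 and Plin5 lie higher in every fasted than in every fed library, Abhd5 lies lower, and Fitm1 separates the zones in each state.

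Pnpla2, the lipase gene, and the perilipin gene Plin5 rose in both zones at 8 h and at 24 h, Plin2 rose in periportal cells at both times, Cidec rose in periportal cells at 24 h, and Abhd5, the gene of the lipase activator, fell in both zones at both times. Fitm1, Cideb, G0s2, Hilpda and Plin4 were called in neither zone at either time by edgeR with all libraries. The exceptions under other settings were Plin4 with DESeq2, and G0s2 and Hilpda with 1 library left out, and their values are given with each gene. In bulk libraries, fewer cells of a type and less RNA per cell cannot be told apart. The 8 h and 24 h comparisons of a zone share the same fed libraries.

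At 8 h, 2 of the 10 genes rose and 1 fell in pericentral cells, where 13.8% of all genes were called (7.27% higher, 6.57% lower), and 3 rose and 1 fell in periportal cells, where 14.4% were called (7.56% higher, 6.85% lower). At 24 h, 2 rose and 1 fell in pericentral cells, against 21.8% of all genes called (10.8% higher, 11.1% lower), and 4 rose and 1 fell in periportal cells, against 19.6% (9.59% higher, 10% lower). The median log2 change over the 10 genes was 0.00 (pericentral) and 0.47 (periportal) at 8 h, and -0.11 and 1.11 at 24 h. Over all genes tested these medians were 0.0069, 0.0148, 0.0090 and -0.0016.

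**Figure D2:**
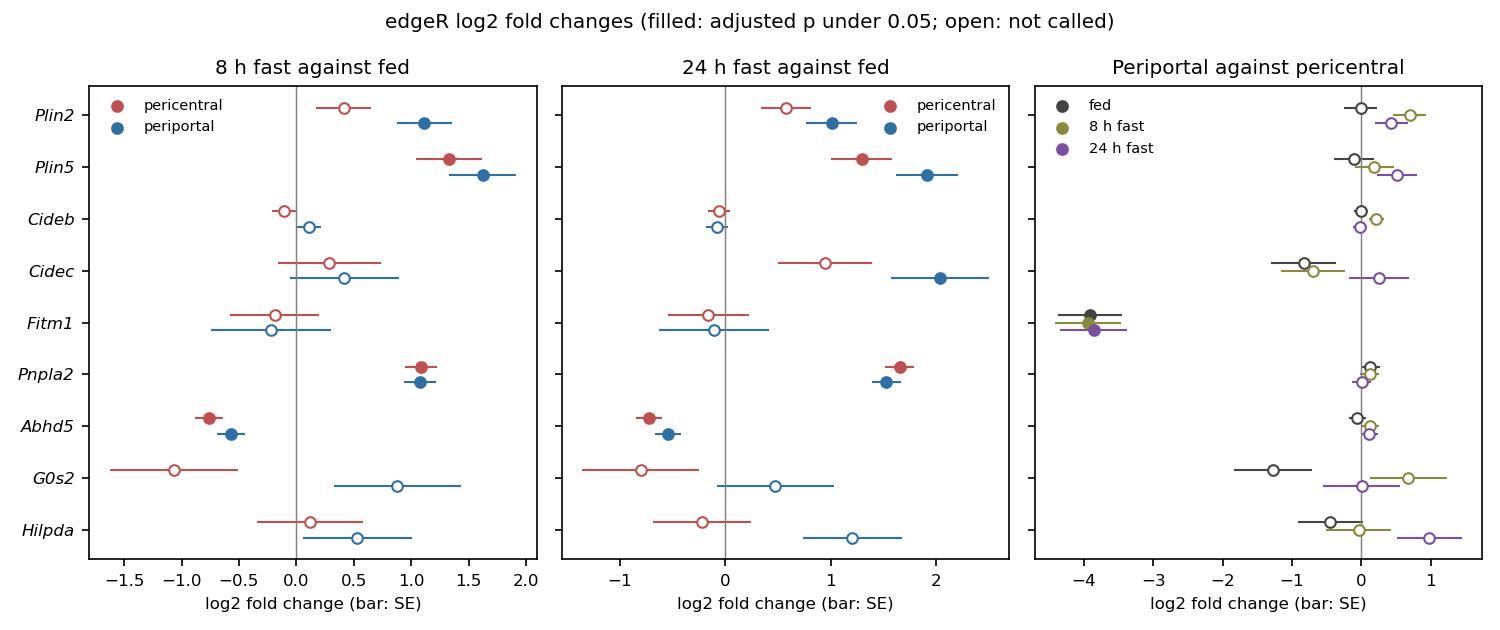
Log2 fold changes (x axes, error bars 1 SE) of 9 of the genes for 8 h against fed, 24 h against fed, and periportal against pericentral, from edgeR with all 18 libraries. Filled points are called at an adjusted p under 0.05 and open points are not, and Plin4 is left out because all 3 of its pericentral 8 h libraries are at 0. Plin5, Pnpla2 and Abhd5 are filled in both zones at both times, and Fitm1 alone is filled for the zones.

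Plin2 encodes the main perilipin of hepatocyte droplets and lies on chr4:86648386-86670060 (GRCm38, minus strand). In pericentral replicates 1 to 3 it stood at 233, 213 and 234 CPM fed, 265, 276 and 363 CPM after 8 h and 321, 311 and 381 CPM at 24 h. In periportal libraries it stood at 247, 232 and 198 CPM fed, 732, 370 and 361 CPM after 8 h and 334, 458 and 570 CPM at 24 h. Every fasted library was above every fed library. The periportal rise was 1.11 on the log2 scale at 8 h (adjusted p = 0.00568, SE 0.24) and 1.01 at 24 h (adjusted p = 0.00793, SE 0.24). The pericentral changes of 0.41 (95% interval -0.10 to 0.92, adjusted p = 0.299) and 0.57 (0.07 to 1.08, adjusted p = 0.1001) were not called.

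Periportal replicate 1 at 8 h, at 732 CPM, carried much of the 8 h value of Plin2. Without it the log2 change was 0.70 (adjusted p = 0.0195), and with only the groups compared in the fit it was 1.12 with an adjusted p of 0.0526. The pericentral 24 h change of 0.57 was called with that library left out (adjusted p = 0.0230) and with only the groups compared (adjusted p = 0.0104). The zone difference itself, the periportal minus the pericentral change in Plin2, was 0.70 at 8 h (adjusted p = 0.909, SE 0.34) and 0.44 at 24 h (adjusted p = 0.813, SE 0.34), so the zones were not shown to differ in the response.

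Plin5 encodes the perilipin of oxidative tissues, which brings droplets and mitochondria together. It lies on chr17:56111601-56117596 (minus strand), 1797 bases from Plin4 on the same strand. Fed libraries held a narrow band, 38.5, 38.9 and 41.0 CPM pericentral and 37.4, 34.6 and 38.1 CPM periportal. At 8 h the levels were 58.1, 107 and 132 CPM pericentral and 95.2, 102 and 141 CPM periportal, and at 24 h they were 100, 70.6 and 120 CPM and 95.5, 191 and 128 CPM.

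All 12 fasted libraries thus lay above all 6 fed libraries for Plin5, with a far wider spread among the fasted. The rise was 1.33 at 8 h (adjusted p = 0.00636, SE 0.29) and 1.30 at 24 h (adjusted p = 0.00517, SE 0.29) in pericentral cells. In periportal cells it was 1.62 (adjusted p = 0.00199, SE 0.29) and 1.91 (adjusted p = 4.66e-04, SE 0.29), a 3.77-fold higher level at 24 h. From 8 h to 24 h Plin5 changed by -0.03 (95% interval -0.64 to 0.57) in pericentral and 0.29 (-0.31 to 0.90) in periportal cells, neither called. Its zone differences were 0.29 (SE 0.40) and 0.62 (SE 0.40), with adjusted p of 0.980 and 0.766.

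Plin4 encodes a perilipin of adipose tissue and muscle and lies on chr17:56100591-56109803 (minus strand). It was at 0 in 7 of 18 libraries and at 0 in all 3 pericentral libraries at 8 h, where 3 counts over the group would be 0.0418 CPM. Periportal replicate 1 at 24 h stood apart with 235 counts (13.1 CPM), against 0.956 and 0 CPM in its group and at most 2.60 CPM elsewhere. Adipocyte markers summed to 0.168 CPM and muscle markers to 0 in that library. None of the 12 comparisons called Plin4 in edgeR, DESeq2's Wald test called it lower at 8 h in pericentral cells (adjusted p = 0.0197), and fitted folds against a group at 0 are not given.

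Cideb encodes the CIDE protein of hepatocytes, which works in the lipidation of secreted lipoproteins. It varied least, from 158 to 212 CPM over the 18 libraries, with group means between 168 ± 9.87 (SD, n = 3, pericentral at 8 h) and 196 ± 19.4 CPM (SD, n = 3, periportal at 8 h). Its fasting changes lay between -0.11 and 0.11 on the log2 scale, with SE of 0.10, and none was called. The gene (chr14:55754050-55758458, minus strand) shares 76.3% of its exon bases with Nop9 on the opposite strand, so its level is uncertain where strand use is not stated.

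Cidec encodes the CIDE protein that drives lipid transfer between droplets and lies on chr6:113424634-113435760 (minus strand). In pericentral libraries it stood at 3.18, 4.57 and 2.02 CPM fed, 1.64, 3.02 and 7.19 CPM after 8 h and 9.53, 4.49 and 4.79 CPM at 24 h. In periportal libraries it stood at 1.53, 2.16 and 1.80 CPM fed, 2.02, 2.80 and 2.52 CPM after 8 h and 5.03, 7.86 and 9.61 CPM at 24 h. Periportal 24 h libraries were above all other periportal libraries, whereas the pericentral groups overlapped. The periportal rise from fed to 24 h was 2.04 (adjusted p = 0.00620, SE 0.47), a 4.10-fold higher level. The pericentral change of 0.95 (95% interval 0.00 to 1.89, adjusted p = 0.145) was not called, and the zone difference of 1.09 (SE 0.64) had an adjusted p of 0.732.

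From 8 h to 24 h, Cidec was 1.62 higher in periportal cells (adjusted p = 0.0429, SE 0.46), the only one of the 10 genes called there, against 7.46% of all genes. That call ended with any of 10 libraries left out, at adjusted p of 0.0525 to 0.131. They were pericentral replicate 1 and periportal replicates 1, 2 and 3 of the fed group, pericentral replicate 2 and periportal replicates 1, 2 and 3 of the 8 h group, and periportal replicates 2 and 3 of the 24 h group. With all libraries it was also lost by limma-voom (adjusted p = 0.0533), with the replicate number as a block (0.0571) and without a filter beyond a total of 1 count (0.0860). In pericentral cells the change was 0.66 (adjusted p = 0.388, SE 0.44), and 1.42 (adjusted p = 0.0459) without pericentral replicate 3 of the 8 h group.

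Pnpla2, the triglyceride lipase gene on chr7:141455198-141460743 (plus strand), rose in both zones. Pericentral replicates stood at 39.8, 36.2 and 33.6 CPM fed, 76.2, 82.2 and 74.6 CPM after 8 h and 132, 98.2 and 115 CPM at 24 h. Periportal replicates stood at 37.6, 38.8 and 43.6 CPM fed, 64.0, 89.3 and 100.3 CPM after 8 h and 116, 111 and 118 CPM at 24 h. No library of 1 state overlapped another state within a zone. At 8 h the level was 2.12-fold higher in pericentral (log2 1.09, adjusted p = 7.48e-05, SE 0.14) and 2.11-fold higher in periportal cells (log2 1.08, adjusted p = 8.11e-05, SE 0.14). At 24 h it was 3.15-fold (log2 1.65, adjusted p = 1.54e-06, SE 0.14) and 2.88-fold higher (log2 1.53, adjusted p = 5.19e-06, SE 0.14).

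The 2 zones gave nearly equal values for Pnpla2. The zone difference in its change was -0.01 at 8 h (95% interval -0.42 to 0.40) and -0.13 at 24 h (-0.54 to 0.28), and the level over the 3 states differed by 0.08 (-0.08 to 0.25). From 8 h to 24 h the pericentral rise was 0.57 (adjusted p = 0.0154, SE 0.14), the only one of the 10 genes called there, against 9.71% of all genes, and the periportal change was 0.45 (adjusted p = 0.0550, SE 0.14). Leaving out pericentral replicate 1 or 3 of the 8 h group, or pericentral replicate 1 or 3 of the 24 h group, ended the pericentral call at adjusted p of 0.0667, 0.0560, 0.0743 and 0.0506. Without periportal replicate 3 of the 8 h group or pericentral replicate 2 of the 24 h group, the periportal change was called (0.59 and 0.45, adjusted p = 0.0264 and 0.0483). It was also called with all libraries by DESeq2's Wald test (0.45, adjusted p = 0.0260) and by limma-voom (0.47, adjusted p = 0.0492).

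Abhd5, whose product binds and activates the lipase, lies on chr9:122351608-122381524 (plus strand). Fed libraries stood at 49.5, 37.2 and 36.8 CPM pericentral and 42.5, 42.7 and 33.1 CPM periportal. At 8 h the values were 23.8, 25.3 and 23.9 CPM and 26.2, 29.1 and 24.4 CPM, and at 24 h they were 25.6, 22.9 and 26.3 CPM and 25.8, 27.3 and 27.8 CPM. Every fasted library was below every fed library, and the 8 h and 24 h values overlapped.

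At 8 h Abhd5 fell by 0.76 in pericentral (adjusted p = 5.19e-04, SE 0.12) and by 0.57 in periportal cells (adjusted p = 0.00519, SE 0.12). At 24 h it fell by 0.72 (adjusted p = 5.54e-04, SE 0.12) and by 0.55 (adjusted p = 0.00496, SE 0.12), in the same order. From 8 h to 24 h the changes were 0.03 (95% interval -0.23 to 0.30) and 0.02 (-0.24 to 0.28). Its exons share 16.0% of their bases with an antisense transcript, which counts without a stated strand cannot separate.

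G0s2, an inhibitor of the lipase encoded on chr1:193272161-193273217 (minus strand), had the widest spread of the abundant members. In pericentral libraries it stood at 84.8, 137 and 184 CPM fed, 15.5, 54.0 and 124 CPM after 8 h and 84.8, 78.0 and 69.9 CPM at 24 h. In periportal libraries it stood at 47.2, 61.8 and 58.9 CPM fed, 119, 124 and 65.3 CPM after 8 h and 44.9, 117 and 70.5 CPM at 24 h. The fed groups did not overlap, with all 3 pericentral above all 3 periportal libraries, but the difference of -1.27 (SE 0.56, unadjusted p = 0.0403) had an adjusted p of 0.211 in edgeR. With only the fed groups in the fit its adjusted p was 0.0425.

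At 8 h G0s2 changed by -1.07 in pericentral (adjusted p = 0.246, SE 0.56) and by 0.88 in periportal cells (adjusted p = 0.345, SE 0.56). The pericentral change was -1.96 (adjusted p = 0.0342) without replicate 3, the library at 124 CPM. The zone difference of 1.95 (95% interval 0.25 to 3.65, unadjusted p = 0.0276) had an adjusted p of 0.909, and at 24 h it was 1.28 (-0.41 to 2.97).

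Hilpda encodes a small hypoxia- and lipid-induced inhibitor of the same lipase and lies on chr6:29272488-29275446 (plus strand). Its groups overlapped, at 0.494 to 1.78 CPM in pericentral and 0.559 to 3.26 CPM in periportal libraries. The highest values were those of periportal replicates 2 and 3 at 24 h, 2.49 and 3.26 CPM, against 0.838 CPM in replicate 1. The periportal change at 24 h was 1.21 (adjusted p = 0.0820, SE 0.47), and 1.58 (adjusted p = 0.0198) without replicate 1. Over these same 3 libraries, in order, the Kupffer cell and leukocyte markers summed to 1.57, 10.1 and 22.6 CPM, and their part in the result was not tested.

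Neither zone difference in the fasting response called any of the 10 genes in edgeR, and they called 0% (to 8 h) and 0.016% (to 24 h) of all genes. An unadjusted p under 0.05 was reached by 1 of the 10 at each time, G0s2 at 8 h and Hilpda at 24 h (1.43, SE 0.66), and DESeq2 and limma-voom called 0 of them. Over all genes, 680 and 962 had an unadjusted p under 0.05.

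The balance between members was measured within each library as the log2 ratio of counts, with 0.5 added, and compared by a two-sided exact permutation test that exchanged labels within zones (or within states). The 15 tests of 5 ratios were adjusted together. Ratios to Pnpla2 carry its rise in the same libraries, described above, and are not separate evidence. Abhd5 to Pnpla2, activator to lipase, was 0.759 to 1.24 in the 6 fed libraries, 0.243 to 0.410 at 8 h and 0.193 to 0.245 at 24 h. Every fasted library was below every fed library, and the 8 h and 24 h ranges overlapped at their ends. The mean log2 ratio was lower by 1.73 at 8 h and by 2.21 at 24 h, each with an exact p of 0.005, the smallest the 400 arrangements allow, and an adjusted p of 0.0188.

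G0s2 to Pnpla2, inhibitor to lipase, was 2.13, 3.77 and 5.49 in fed pericentral and 1.26, 1.59 and 1.35 in fed periportal libraries. At 24 h it was 0.642, 0.794 and 0.609 in pericentral and 0.387, 1.05 and 0.596 in periportal libraries, all below every fed library. The log2 ratio was 1.77 lower at 24 h (exact p = 0.005, adjusted p = 0.0188) and 1.39 lower at 8 h (exact p = 0.065, adjusted p = 0.108), where values ran from 0.203 to 1.87. The 8 h difference was called without periportal replicate 1 of the 8 h group (a difference of -1.55, adjusted p = 0.0321). At 24 h G0s2 itself changed by -0.80 in pericentral and 0.47 in periportal cells, neither called, while Pnpla2 rose by 1.65 and 1.53. The lower ratio thus does not show a fall of G0s2.

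Plin5 to Plin2, the ratio of the oxidative-tissue to the general perilipin, was 0.149 to 0.193 in fed and 0.225 to 0.417 in 24 h libraries, with no overlap. It was 0.78 higher on the log2 scale at 24 h (exact p = 0.005, adjusted p = 0.0188) and 0.71 higher at 8 h (exact p = 0.035, adjusted p = 0.0656). Periportal replicate 1 at 8 h, the library with the highest Plin2, had a ratio of 0.130, and without it the 8 h difference was 0.93 (adjusted p = 0.0150). Cidec to Cideb was 1.53 higher at 24 h (exact p = 0.01, adjusted p = 0.0300), at 0.99 in pericentral and 2.07 in periportal cells. Cideb was called in no fasting comparison, so this ratio carries the change of Cidec and is not separate evidence. The difference was 1.33 with an adjusted p of 0.0600 without pericentral replicate 3 of the fed group. Without pericentral replicate 1 of the 24 h group it was 1.35 with an adjusted p of 0.05. Hilpda to Pnpla2 was lower by 0.74 at 8 h and by 1.25 at 24 h, with adjusted p of 0.05 and 0.0643, neither under the threshold. The 8 h difference was called with 2 counts added (adjusted p = 0.0375) and without periportal replicate 2 of the fed group (0.0250), periportal replicate 1 of the 8 h group (0.0375) or periportal replicate 3 of the 24 h group (0.0429). The 24 h difference was called without that last library (-1.44, adjusted p = 0.0429). None of the 5 ratios passed the test between zones, with adjusted p of 0.359 to 0.909.

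**Figure D3:**
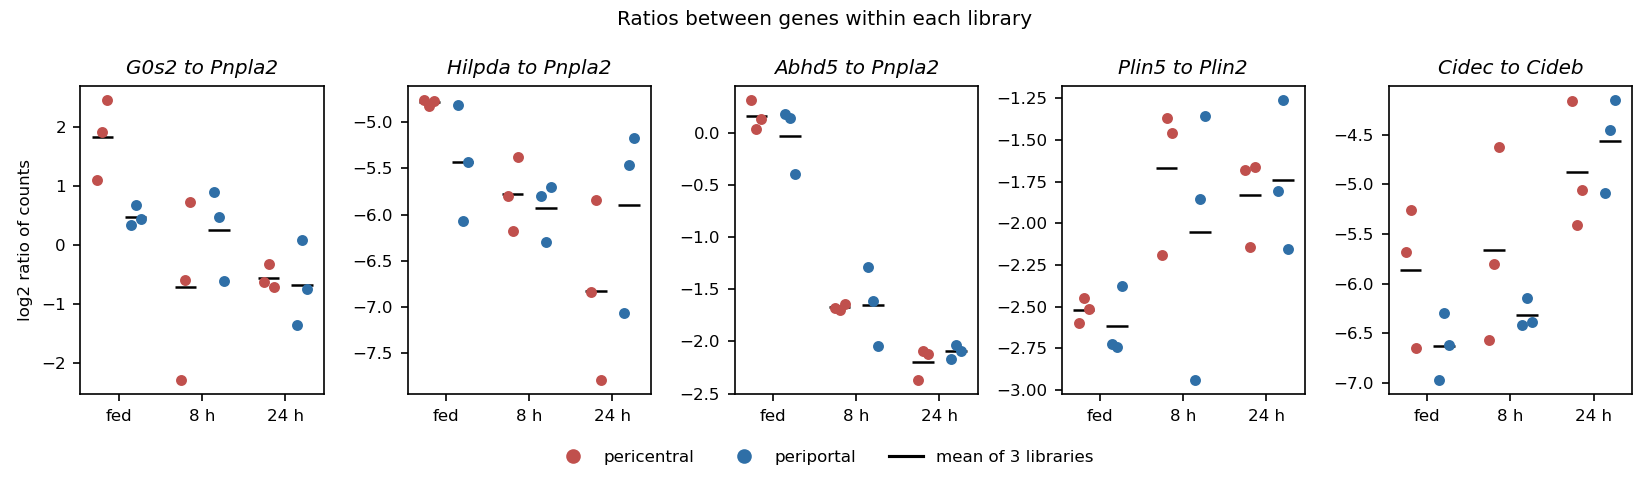
Log2 ratio of the counts of 2 genes within each library (y axes) by feeding state (x axes) and zone (colour), with a black line at the mean of 3 libraries. Abhd5 to Pnpla2 lies lower in every 8 h and 24 h library than in every fed library, and Plin5 to Plin2 at 24 h lies above all fed libraries.

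Fitm1 was the member that differed between zones. It encodes a protein of the endoplasmic reticulum that binds triglyceride and helps droplets form, best known from muscle, and lies on chr14:55575617-55576954 (plus strand). Pericentral libraries held 23.8, 44.5 and 29.4 CPM fed, 22.9, 24.3 and 38.4 CPM after 8 h and 42.9, 21.8 and 22.7 CPM at 24 h. Periportal libraries held 1.24, 3.64 and 1.62 CPM fed, 2.18, 1.60 and 1.77 CPM after 8 h and 3.47, 1.79 and 0.920 CPM at 24 h. The lowest pericentral library was thus well above the highest periportal one.

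The periportal minus pericentral difference in Fitm1 was -3.91 fed (adjusted p = 1.26e-04, SE 0.47), -3.94 at 8 h (adjusted p = 1.95e-04, SE 0.48) and -3.86 at 24 h (adjusted p = 4.17e-04, SE 0.48). It was 15.04-fold in the fed state. Averaged over the states it was -3.90 (adjusted p = 1.94e-07, SE 0.27), rank 35 by size among the 1243 genes called lower in periportal cells and rank 15 among the 819 of these with a mean of at least 10 CPM. The summed muscle markers did not exceed 0.586 CPM in any library. Fasting changes of Fitm1 lay between -0.22 and -0.11 with SE of 0.39 to 0.52, and its zone differences in the response were -0.03 (95% interval -1.40 to 1.34) and 0.05 (-1.35 to 1.46). An antisense transcript shares 11.2% of its exon bases.

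No other member was called between zones by edgeR with all libraries in any state. With only the fed groups in the fit, G0s2 was called (-1.27, adjusted p = 0.0425). The share of all genes called was 8.01% fed, 7.14% at 8 h, 4.17% at 24 h and 20.3% over the mean of the states (10.3% higher and 9.96% lower in periportal cells). The median difference over the 10 genes was -0.28, 0.16 and 0.19 in the 3 states, and 0.07 over their mean. Plin2 came nearest of the others, at 0.37 higher in periportal cells over the states (adjusted p = 0.0703, SE 0.14). It was called without periportal replicate 2 or 3 of the 8 h group or periportal replicate 1 of the 24 h group, at 0.42, 0.43 and 0.43, with adjusted p of 0.0416, 0.0367 and 0.0326. DESeq2's Wald test with all libraries also called Plin2, at 0.70 at 8 h (adjusted p = 0.0349) and 0.37 over the states (adjusted p = 0.0306).

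Other genes of the pathway were described as 3 lists. Of 16 further droplet coat and assembly genes, 12 were tested, and 12 of 12 other neutral lipid hydrolases and 12 of 12 regulators were. At 24 h in pericentral cells, 3 coat and assembly genes rose (Hsd17b13, Hsd17b11 and Fitm2) and 2 fell (Acsl3 and Faf2), 2 hydrolases rose (Ces1d and Pnpla8) and 1 fell (Pnpla3), and 4 regulators rose (Ppara, Ppargc1a, Creb3l3 and Foxo1) and 2 fell (Srebf1 and Mlxipl). In periportal cells, 1 coat and assembly gene rose (Fitm2) and 4 fell (Acsl3, Plin3, Ldah and Pcyt1a), 1 hydrolase rose (Pnpla8) and 1 fell (Pnpla3), and the same 4 regulators rose and 3 fell (Srebf1, Mlxipl and Hif1a). Of all genes, 21.8% were called at 24 h in pericentral and 19.6% in periportal cells. Median log2 changes of the 3 lists, in the order coat and assembly, hydrolases and regulators, were 0.01, 0.05 and 0.05 in pericentral and -0.11, -0.16 and 0.08 in periportal cells.

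Pnpla3, a relative of Pnpla2 that competes for the same activator and is induced by feeding, went the opposite way to it. It had a mean of 7.51 ± 4.61 CPM in fed and 0.397 ± 0.275 CPM in 24 h pericentral libraries (SD, n = 3), a change of -4.29 (adjusted p = 0.00173, SE 0.81), and of -3.98 (adjusted p = 0.00278, SE 0.79) in periportal cells. Acsl3, an acyl-CoA synthetase of growing droplets, fell by 1.203 in pericentral and dropped by 1.405 in periportal cells (adjusted p = 5.85e-04 and 2.21e-04). Fitm2, the FIT gene of most tissues, rose by 0.52 and 0.68 (adjusted p = 0.0248 and 0.00627) and was 0.53 lower in periportal cells over the states (adjusted p = 4.45e-04), in the same direction as Fitm1. Hsd17b13, a droplet enzyme of the liver, stood at 88.4 ± 21.4 CPM in fed pericentral and 747 ± 93.8 CPM in fed periportal libraries (SD, n = 3), the opposite zone to Fitm1, at 2.69 higher in periportal cells over the states (adjusted p = 8.09e-08). It rose by 1.65 at 24 h in pericentral cells (adjusted p = 0.00146), where the libraries ran from 155 to 441 CPM. In the same comparison 4 of 6 periportal marker genes were called higher (Hal, Sds, Gls2 and Cyp2f2), against 10.8% of all genes. Of 6 pericentral marker genes, 0 were called there in either direction. Sds was also called higher at 24 h in periportal cells. The part of a changed zone mix in the rise of Hsd17b13 was not tested.

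Among the regulators, Srebf1, which drives fatty acid synthesis in the fed liver, fell by 3.09 in pericentral and dropped by 3.85 in periportal cells at 24 h (adjusted p = 4.89e-05 and 1.26e-05). Ppargc1a, a coactivator of PPAR receptors, rose by 1.68 in each (adjusted p = 1.60e-04 and 1.53e-04). Foxo1, a factor restrained by insulin and known to act on Pnpla2, rose by 1.27 and 1.37 (adjusted p = 8.57e-05 and 5.69e-05). Pparg, the adipogenic PPAR receptor, did not pass the test with fasting, but its mean was 26.8 ± 6.19 CPM in fed pericentral and 1.74 ± 1.5 CPM in fed periportal libraries (SD, n = 3), 4.02 lower in periportal cells over the states (adjusted p = 6.12e-07). The carboxylesterase Ces1d rose by 0.65 at 24 h in pericentral cells (adjusted p = 0.0328) and has near-identical neighbours, so its level is uncertain.

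**Figure D4:**
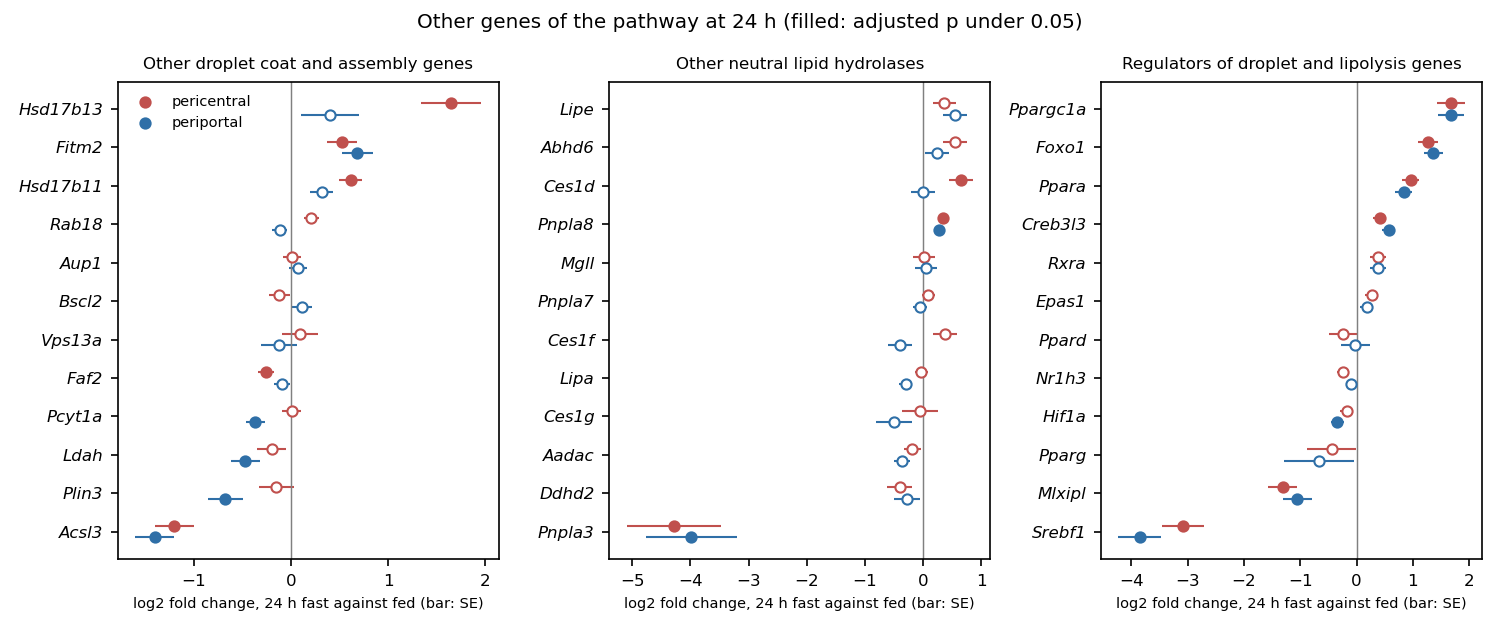
Log2 fold changes from fed to 24 h (x axes, error bars 1 SE) of the other coat and assembly genes, the other hydrolases and the regulators, in pericentral and periportal cells, with filled points called at an adjusted p under 0.05. Acsl3, Pnpla3 and Srebf1 lie lowest of their lists in both zones, and Ppargc1a and Foxo1 lie highest among the regulators.

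At 8 h, in pericentral cells, 2 coat and assembly genes fell (Acsl3 and Pcyt1a), 3 hydrolases fell (Pnpla3, Ddhd2 and Mgll), and 2 regulators rose (Ppard and Foxo1) and 2 fell (Srebf1 and Hif1a). In periportal cells, 1 coat and assembly gene rose (Faf2) and 3 fell (Acsl3, Plin3 and Pcyt1a), 2 hydrolases rose (Pnpla7 and Pnpla8) and 1 fell (Mgll), and 2 regulators rose (Ppard and Foxo1) and 1 fell (Srebf1). Of all genes, 13.8% were called at 8 h in pericentral and 14.4% in periportal cells. Acsl3 had reached -1.52 and -1.56 and Srebf1 -3.06 and -3.78 by then. The monoglyceride lipase gene Mgll, which acts last in the same breakdown, fell by 0.81 and 0.67 at 8 h (adjusted p = 0.00926 and 0.0265) and rose by 0.82 and 0.73 from 8 h to 24 h (adjusted p = 0.0138 and 0.0319).

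From 8 h to 24 h in pericentral cells, the 3 lists, in the order above, had 3, 3 and 3 genes higher and 1, 0 and 2 lower. In periportal cells they had 0, 2 and 2 higher and 1, 2 and 2 lower. The share of all genes called was 9.71% in pericentral and 7.46% in periportal cells. Over the mean of the states, 1, 1 and 3 were higher and 4, 3 and 2 lower in periportal than in pericentral cells. There 20.3% of all genes were called (10.3% higher and 9.96% lower). None of the 36 was called in either zone difference in the response, where 0% (to 8 h) and 0.016% (to 24 h) of all genes were called.

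Likeness was measured as Pearson's r of log2 CPM over the 18 libraries, with 6598 genes compared, as a description of points that share their libraries, zones and states. Fitm1 was most like Npr2 (r = 0.985), Plbd1 (0.975) and Pparg (0.973). Pnpla2 was most like Wbp1l (0.973), Fbxo31 (0.968) and Slc25a32 (0.963), and Abhd5 was most like Elovl6 (0.948), Rcan1 (0.948) and Insig1 (0.947). For Plin5 these were Arl4a (0.945), Smim13 and Cdip1 (0.936 each), for Plin2 Tmem82 (0.884), Pllp (0.863) and Tgoln1 (0.862), and for Cidec Dctn3 (0.866), Gabarapl2 (0.865) and Bnip3l (0.848). The best partners of Plin4, Cideb, Hilpda and G0s2 reached 0.769, 0.769, 0.744 and 0.666. Between members, r was 0.874 for Plin5 with Pnpla2, 0.767 for Plin2 with Plin5 and -0.821 for Pnpla2 with Abhd5.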

How the data were processed

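RNA of pericentral and periportal hepatocytes was measured in 6 groups of 3 libraries. The deposited file is a single table of estimated counts, made by the authors. The submitters' processing notes name kallisto 0.46.0 and the build mm10, and the annotation, the summing to genes and the use of strand are not given in the sources used here. Per the file's identifiers the table held 28030 genes, 27566 with a symbol and 464 without, and 31.19% of its values were not whole at a tolerance of 1e-09. Each column matched 1 library by name, and same-group libraries differed beyond sampling noise (chi-square per gene 35 to 117 over 18 pairs).

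Counts were rounded to whole numbers and tested with edgeR 4.0.16 (R 4.3.3, limma 3.58.1; quasi-likelihood F test, robust, TMM, filterByExpr) on all 18 libraries, with 1 coefficient per group. P-values were adjusted by Benjamini-Hochberg over 12477 genes. An SE is the size of the log2 change divided by the square root of F. The tests were checked on simulated data. Alternatives were DESeq2 1.42.0 (size factors or Wald test), limma-voom, other filters, TMM without the 20 most abundant genes, only the groups compared, the replicate number as a block, and each library left out. Between the zones at 24 h, each same-numbered pair deviated together (r = 0.121, 0.165 and 0.147) and matched best by number. Periportal replicate 1 at 8 h and at 24 h, from different fasting times, reached 0.206, so such values do not establish a pairing. A fit of only the 2 zones at 24 h with the block was added after seeing the data. It called 1 member, Fitm1, as the fit of all libraries did. Coordinates and exon overlaps are from GENCODE M21 on GRCm38. The 10 members and the lists were chosen with earlier results of these data known. The genes named beyond the members were up to 3 per list with the largest called 24 h change and the 3 genes most like each member. The other list genes named, such as Pparg, Mgll and Hsd17b11, were chosen after their values were seen. With 3 libraries per group, precision is set by their number, and intervals are at 95%. Of the coat and assembly list, Ldaf1 and Tmt1b were not matched, and Plin1 and Cidea were under the filter.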

Additional observations from a re-analysis of the deposited data

Results flagged for a closer look

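G0s2 was picked out for a closer look because its libraries moved in opposite directions in the 2 zones from fed to 8 h. All 3 pericentral libraries at 8 h were below the fed pericentral mean of 135 CPM, and all 3 periportal libraries were above the fed periportal mean of 56.0 CPM. The periportal minus pericentral difference in the log2 change was 1.95 (95% interval 0.25 to 3.65), with an unadjusted p of 0.0276 and an adjusted p of 0.909 in edgeR. The pericentral 8 h values ran from 15.5 to 124 CPM and overlapped the fed values of 84.8 to 184 CPM.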

How the results depend on the processing

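The counts of members called from fed to 8 h and 24 h, for the zones at 24 h and for the zone differences stayed within 1.5 times of the reported ones under every alternative run. The fed zone count was 2 with only the groups compared (G0s2 added), and the 8 h zone count and the count over the mean of the states were 2 with DESeq2's Wald test (Plin2 added). Leaving out 1 library gave 1 to 2 over the mean of the states, 0 to 1 for 24 h against 8 h in pericentral cells and 0 to 2 in periportal cells. That periportal count was 0 without a filter beyond a total of 1 count, 0 with the replicate block and 2 with DESeq2. Same-numbered libraries correlated in their deviations at -0.12 to 0.206 over 45 same-numbered pairs of libraries, 7 over 0.1, and matched best by number in 23, so over the series the numbers were not taken to pair the samples. Between the 2 zones at 24 h each same-numbered pair matched best by number, but whether they are pairs is not stated. The block left Fitm1 called there. With the replicate block, the 5 ratio differences called between fed and fasted libraries kept their values but had adjusted p of 0.0938 (G0s2, Abhd5 and Plin5 ratios) and 0.134 (Cidec to Cideb). Exchanging only within same-numbered pairs leaves 64 arrangements and a smallest p of 0.0312, which the former reached, so their loss says nothing of stability. In edgeR the block changed no other count of members by over 1.5 times.

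Over all genes, counts moved by over 1.5 times for the zones at 8 h (450 with only the groups compared, against 891), the zones at 24 h (821 with DESeq2, against 520), 24 h against 8 h (617 against 1212 in pericentral and 413 against 931 in periportal cells, with only the groups compared) and the zone differences (to 8 h, 6 with DESeq2 against 0; to 24 h, 1 with a filter at a mean of 1 CPM, 0 with the block or limma-voom and 38 with DESeq2, against 2). Leaving out 1 library gave 614 and 640 for the fed zones (pericentral replicate 2 or periportal replicate 1, against 1000), 525 and 569 at 8 h (periportal replicate 3 or 2), 252 to 332 at 24 h (pericentral replicates 1 and 3, periportal replicates 2 and 3), 1081 and 1512 for the periportal 8 h and 24 h changes (fed replicate 1, against 1798 and 2446), 534 to 731 for 24 h against 8 h in pericentral cells (replicates 1 and 2 of 8 h, 2 and 3 of 24 h), 335 to 588 in periportal cells (replicates 2 and 3 of either time), and 0 to 3 and 0 to 4 for the zone differences. The cause was not tested. Another 90 pairs of member and comparison were called under no alternative, and 34 of these changed sign under some. Depth limits Plin4, Hilpda and Cidec, whose libraries held as few as 0, 10 and 37 counts.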
